A study of Mus musculus with 30 samples.

Results

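Messenger RNA of 6 macrophage cytokine genes was followed across tumour macrophages: Il6, Osm, Il12b, Tnf, Il10 and Il15. They were taken by gene name from a count table of 46603 genes, in which each name occurred once, and all 6 were also listed in the accompanying table of normalised values. Tumor-associated macrophages (TAMs) were sorted from subcutaneous 3LL-R tumours, a Lewis lung carcinoma line, of wild-type (WT) C57BL/6 mice; the age and number of the animals, and whether several were pooled for a library, were not given in the sources used here. A low or a high surface level of MHC class II split the cells into MHC-IIlo and MHC-IIhi TAMs. Each subset was sequenced directly after sorting from 30000 cells (fresh), after 24 h of culture without added lactate (no-lactate), and after 24 h with 20 mM sodium L-lactate (lactate), the cultures starting from 250000 cells. Each of the 6 groups had 5 libraries, labelled as biological replicates. Because nothing says that replicates came from separate mice, p-values measure the spread between these libraries, which may be technical. All cells came from 1 tumour line and were taken out of the tumour for culture, and fresh and cultured cells also differed in the number sorted.

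Interleukin-6 (IL-6) and oncostatin M (OSM) belong to 1 cytokine family that signals through the shared receptor chain gp130 and STAT3. Il12b encodes the p40 subunit of interleukin-12 and interleukin-23, tumour necrosis factor (TNF) is made as a membrane protein and shed by the protease ADAM17, IL-10 restrains macrophage activation, and IL-15 is presented by its own receptor chain to NK and T cells. In macrophages, transcription of Il6, Il12b and Tnf is induced through NF-kappa B, and their transcripts are cleared by RNA-binding proteins such as tristetraprolin.

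The annotation of GRCm38 placed Il6 (ENSMUSG00000025746) at chr5:30013114-30019981 on the plus strand and Osm (ENSMUSG00000058755) at chr11:4236420-4241026 on the plus strand. Il12b (ENSMUSG00000004296) was at chr11:44400063-44414033 on the plus strand, and Tnf (ENSMUSG00000024401) at chr17:35199381-35202007 on the minus strand. Il10 (ENSMUSG00000016529) was at chr1:131019845-131024974 on the plus strand, and Il15 (ENSMUSG00000031712) at chr8:82331637-82403222 on the minus strand. No other annotated gene overlapped any of the 6. RefSeq promoter sequences (GRCm38.p6) were found for 3 of the 6 genes, Il6, Il12b and Tnf, whose transcripts were all lower in cultured MHC-IIlo than in cultured MHC-IIhi TAMs. The 250 bases before each gene's start are shown for these 3, at chr5:30012864-30013113 (plus strand), chr11:44399813-44400062 (plus strand) and chr17:35202008-35202257 (minus strand). Capitals mark matches to 4 motifs searched on both strands: a kappa B site spelled GGGANTTTC, an AP-1 site spelled TGANTCA, a C/EBP site spelled TTGNGCAA and a TATA box spelled TATAAA, with N for any base.
Il6: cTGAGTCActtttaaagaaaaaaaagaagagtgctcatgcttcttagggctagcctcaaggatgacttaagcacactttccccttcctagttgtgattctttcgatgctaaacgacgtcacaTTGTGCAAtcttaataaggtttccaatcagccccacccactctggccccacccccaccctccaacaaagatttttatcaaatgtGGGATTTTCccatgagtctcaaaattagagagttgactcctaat
Il12b: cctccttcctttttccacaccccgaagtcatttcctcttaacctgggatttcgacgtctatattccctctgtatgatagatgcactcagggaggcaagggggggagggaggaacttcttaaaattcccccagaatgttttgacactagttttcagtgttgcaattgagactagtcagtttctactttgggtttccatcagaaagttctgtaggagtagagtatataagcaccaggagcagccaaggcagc
Tnf: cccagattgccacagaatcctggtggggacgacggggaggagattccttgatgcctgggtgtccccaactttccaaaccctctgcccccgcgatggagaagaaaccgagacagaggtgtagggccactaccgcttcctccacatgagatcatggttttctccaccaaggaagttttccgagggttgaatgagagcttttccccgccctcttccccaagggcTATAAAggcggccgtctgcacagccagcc
The Il6 window held GGGATTTTC 44 to 36 bases before the start, TTGTGCAA 128 to 121 bases before it and TGAGTCA 249 to 243 bases before it. The Tnf window held TATAAA 29 to 24 bases before the start, and these spellings were not in the Il12b window. Among 32851 promoter windows of the same length, 0.941% held the kappa B spelling, 6.75% the AP-1 spelling, 2.61% the C/EBP spelling and 12.4% the TATA spelling. The matches did not overlap one another. A match is a description of the letters and not a measured binding site.

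Total counts per library ran from 16913250 to 31481548. The 8 macrophage markers had a count in every group, with summed levels of 21750 to 25510 counts in 1e+06 (CPM) in fresh and 6039 to 17750 CPM in cultured libraries. The mean correlation of a library with the others of its group was 0.973 to 0.988 in 29 libraries and 0.961 in 1 library, lactate MHC-IIlo 5. That library had the lowest macrophage marker sum, 6039 CPM against 11310 to 15980 CPM in the other 4 of its group, a fibroblast marker sum of 89.1 CPM against 39.5 to 60.5 CPM, and an epithelial marker sum of 96.3 CPM against 35.8 to 60.5 CPM. It lay outside the rest of its group for Il6, Osm, Tnf and Il15 as well, and the lactate values of MHC-IIlo are given with and without it. Libraries are named by group and by the number in the count table's column header.

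Compared per length, Osm was the most abundant of the 6 transcripts in fresh TAMs, at 318 ± 80.3 RPKM (CPM per kilobase of gene length; SD, n = 5) in MHC-IIhi and 302 ± 48.3 RPKM in MHC-IIlo. Tnf was second, at 35.5 ± 12.2 RPKM in fresh MHC-IIhi. Il6 was at 3.65 ± 1.26 RPKM and Il15 at 2.91 ± 0.314 RPKM there, and Il10 and Il12b were below both, at 0.540 ± 0.472 and 0.308 ± 0.473 RPKM. After culture without lactate the order in MHC-IIhi was Tnf at 34.9 ± 6.28, Il15 at 18.2 ± 7.09, Osm at 15.9 ± 6.81, Il6 at 8.95 ± 4.51, Il10 at 4.59 ± 1.30 and Il12b at 3.82 ± 1.27 RPKM. By mean, Osm thus went from the first to the third place and Il15 from the fourth to the second. Beyond this paragraph, levels are in CPM and are compared within a gene only.

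**Figure D1:**
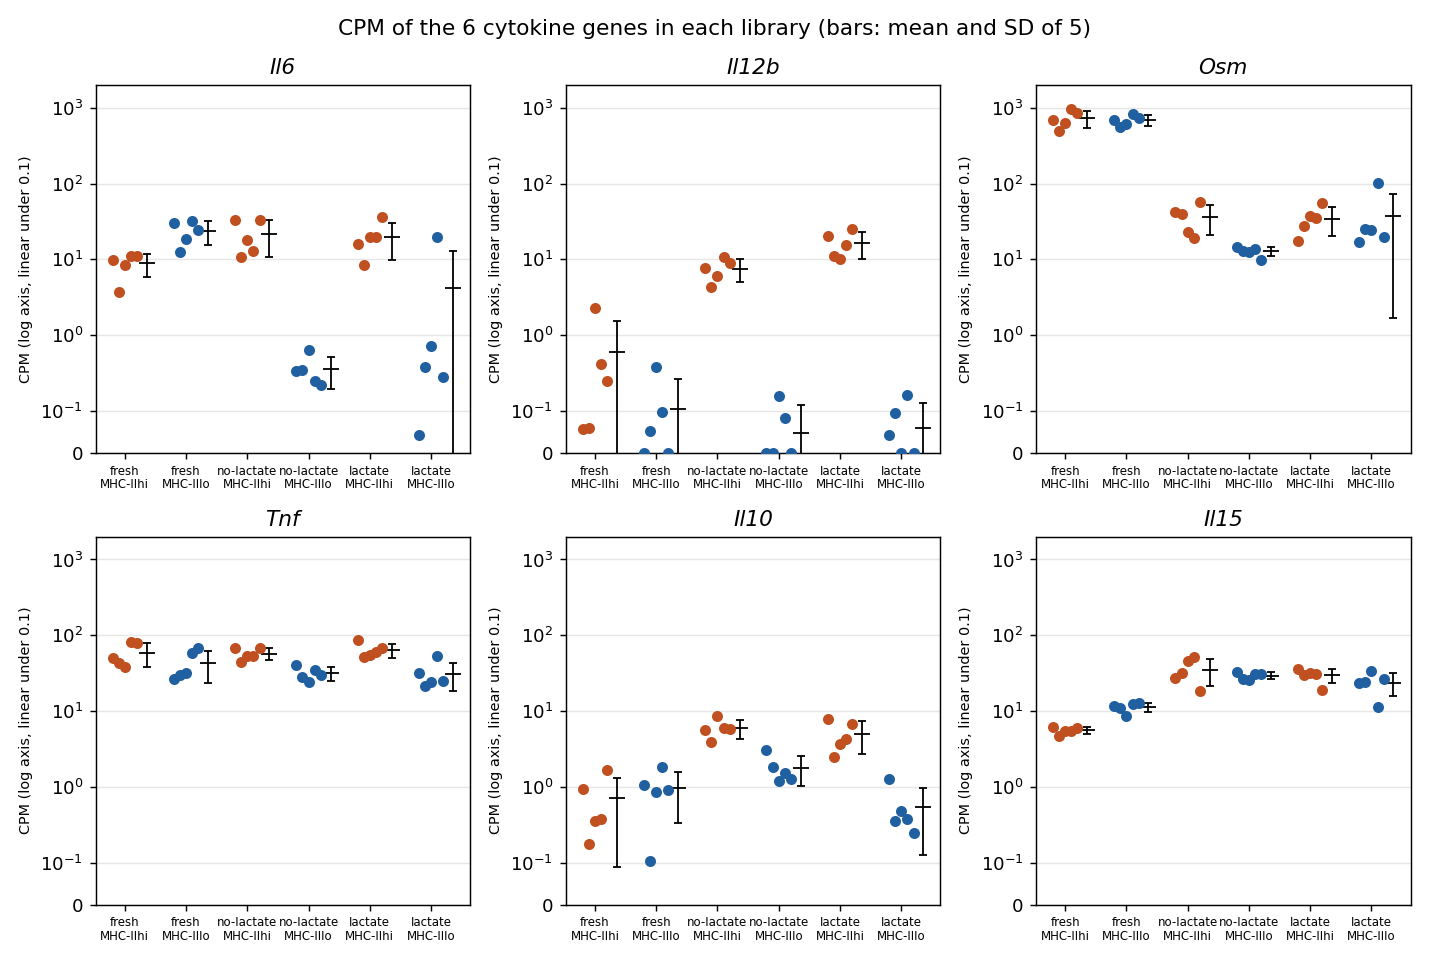
CPM of each cytokine gene in every library (points, 5 per group; orange MHC-IIhi, blue MHC-IIlo; bars give mean and SD), on a vertical axis that is logarithmic above 0.1 CPM and linear under it. Il6 in cultured MHC-IIlo TAMs lies under 1 CPM in every library but lactate MHC-IIlo 5, at 19.7 CPM, and Osm drops from 491 to 959 CPM in fresh cells to 9.86 to 101 CPM in cultured cells.

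The comparison of subsets asked how MHC-IIlo and MHC-IIhi TAMs differ. In fresh cells Il6 and Il15 were higher in MHC-IIlo and no member passed as lower, whereas in no-lactate culture Il6, Osm, Il12b, Tnf and Il10 were all lower in MHC-IIlo. Differences are log2 fold changes from edgeR's quasi-likelihood test, and a gene passed at a Benjamini-Hochberg adjusted p under 0.05 over all genes of the fit. Of 5 members tested in fresh cells, 2 were higher, against 14% of 12787 genes that were higher and 15.2% that were lower. With the replicate number as a block Tnf also passed there, lower in MHC-IIlo (-0.46, adjusted p = 0.000285). The same 2 members had ranges that did not overlap between subsets, which held for 11.4% of genes in that direction. In no-lactate culture 5 of 6 members passed and were lower in MHC-IIlo, against 11.6% of 13593 genes. The ranges of those 5 did not overlap, as for 10.9% of genes. In lactate culture Il6, Il12b, Tnf and Il10, 4 of 6, were lower, against 13.3% of genes, and 2 of them, Il12b and Il10, had ranges that did not overlap, against 6.89%.

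Markers of other cells moved with the subsets, and are given as summed levels, since a marker could pass the filter on low counts through its higher group alone. The 7 dendritic cell markers summed to 17.99 to 36.8 CPM in fresh MHC-IIhi and 2.23 to 4.68 CPM in fresh MHC-IIlo, where Xcr1 was at 0. In culture their sum was 88.6 to 296.5 CPM in MHC-IIhi without lactate, 89.6 to 244.4 CPM in MHC-IIhi with lactate, and 0.499 to 3.95 CPM in both MHC-IIlo groups together. The 6 T and NK cell markers summed to 7.63 to 13.5 CPM in fresh MHC-IIhi and 0.925 to 5.25 CPM in fresh MHC-IIlo (Ncr1 at 0), and the 4 B cell markers to 8.82 to 18.8 and 0.102 to 2.26 CPM. Both lists were also lower in cultured MHC-IIlo. Without lactate the T and NK cell sum was 5.44 to 15.8 CPM in MHC-IIhi and 0.917 to 4.44 CPM in MHC-IIlo, and with lactate 3.61 to 7.59 CPM (Ncr1 at 0) and 0.485 to 2.83 CPM. The B cell sum was 1.40 to 2.71 against 0.158 to 0.658 CPM without lactate, and 0.556 to 2.02 against 0.0809 to 0.427 CPM with it. The 6 neutrophil markers went the other way in fresh cells, with sums of 174 to 279 CPM in MHC-IIhi and 436 to 640.2 CPM in MHC-IIlo. In culture they overlapped, at 698 to 991 and 742 to 999 CPM without lactate and 1503 to 2288 and 520.3 to 1646 CPM with it, where Ly6g was at 0 in both subsets and Retnlg in MHC-IIlo, as it was there without lactate. Mmp8 alone made up most of these cultured sums. Its means in MHC-IIhi and MHC-IIlo were 760.7 and 814.7 CPM without lactate, and 1781 and 1148 CPM with it.

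The 4 epithelial markers summed to 486 to 620 CPM in fresh MHC-IIhi and 132 to 303 CPM in fresh MHC-IIlo, where Epcam and Krt18 were at 0. Their cultured sums overlapped between subsets at 31.3 to 96.3 CPM, most of it Krt8, with Krt18 at 0 in both no-lactate groups and Epcam at 0 in lactate MHC-IIlo, while Cdh1 was 7.62 ± 1.16 CPM in no-lactate MHC-IIhi and 1.41 ± 0.363 CPM in no-lactate MHC-IIlo (SD, n = 5; -2.37 ± 0.24, adjusted p = 4.52e-07). The 3 endothelial markers summed to 98.1 to 121 CPM in fresh MHC-IIhi and 88.6 to 110.3 CPM in fresh MHC-IIlo. Of these, Cdh5 (1.79 ± 0.34, adjusted p = 0.00168) and Kdr (1.35 ± 0.21, adjusted p = 0.000294) were higher in fresh MHC-IIlo. Pecam1, the largest part of the sum, leaned the other way and did not pass (99.64 CPM in MHC-IIhi, 82.15 CPM in MHC-IIlo, -0.27 ± 0.10, adjusted p = 0.0698). In culture the endothelial sum was 311.9 to 604.5 CPM in MHC-IIhi and 278.2 to 337.7 CPM in MHC-IIlo without lactate, and 292 to 390.3 and 112.1 to 299.9 CPM with it, and Pecam1 was lower in no-lactate MHC-IIlo (-2.46 ± 0.20, adjusted p = 3.16e-08). The 6 fibroblast markers summed to 17.7 to 72.3 CPM in fresh MHC-IIhi and 31.7 to 109 CPM in fresh MHC-IIlo, and overlapped between the cultured subsets at 25.95 to 115.7 CPM. Of the 8 macrophage markers 5 were higher in fresh MHC-IIlo, against 14% of all genes. In each cultured MHC-IIlo 2 were higher, against 9.19% without and 9.15% with lactate, and with lactate 2 were lower, against 13.3%. The part of the markers in the cytokine differences was not tested. In these bulk libraries, fewer cells of a type and less RNA per cell cannot be told apart.

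**Figure D2:**
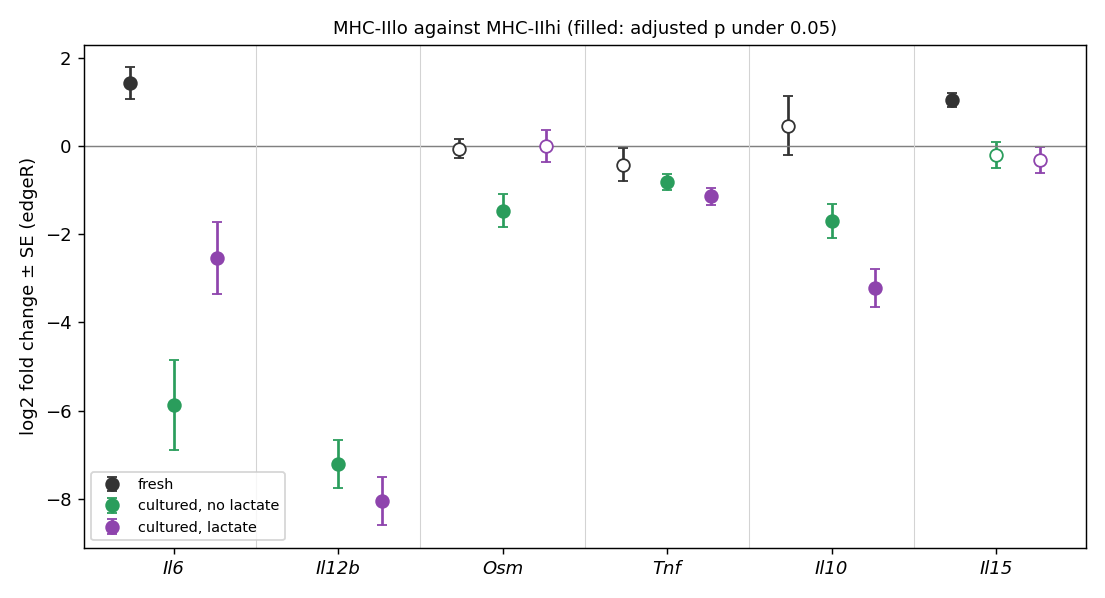
Log2 fold change of MHC-IIlo against MHC-IIhi TAMs for each gene (points with SE; fresh in black, culture without lactate in green, culture with lactate in purple; filled where adjusted p was under 0.05). Il6 lies at 1.42 in fresh cells and at -5.87 in no-lactate culture, and Il12b, not tested in fresh cells, at -7.21 and -8.05 in the cultures.

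Il6, the acute inflammatory cytokine of the group, was higher in fresh MHC-IIlo than in fresh MHC-IIhi TAMs. Its values were 9.86, 3.73, 8.53, 11.1 and 11.1 CPM in fresh MHC-IIhi 1 to 5 and 29.99, 12.6, 18.6, 32.1 and 24.3 CPM in fresh MHC-IIlo 1 to 5. The lowest MHC-IIlo library stood above the highest MHC-IIhi library, and within each replicate number MHC-IIlo was 2.18 to 3.37 times as high. The log2 difference was 1.42 ± 0.35 (SE, adjusted p = 0.0118). With all 30 libraries in 1 fit the same difference missed the threshold (adjusted p = 0.146).

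In no-lactate culture the difference had the opposite sign. Il6 was 33.4, 10.8, 18.1, 12.9 and 33.3 CPM in no-lactate MHC-IIhi 3, 4, 5, 6 and 7, and 0.334, 0.346, 0.633, 0.249 and 0.220 CPM in no-lactate MHC-IIlo 1, 3, 4, 5 and 6. The MHC-IIlo libraries held 6 to 16 reads of the gene each, and the groups did not overlap. MHC-IIlo was lower by 58.5-fold, a log2 difference of -5.87 ± 1.02 (SE, adjusted p = 0.000257). Relative to fresh cells, MHC-IIhi rose by 1.30 ± 0.35 (SE, adjusted p = 0.00329) on the log2 scale, with ranges that overlapped at 10.8 and 11.1 CPM and an adjusted p of 0.102 when all 30 libraries were fitted together. MHC-IIlo changed by -6.0 ± 0.48 (SE, adjusted p = 1.92e-09), from 23.5 ± 8.08 to 0.357 ± 0.164 CPM (SD, n = 5). The culture change itself differed between the subsets by -7.30 ± 0.60 (SE, adjusted p = 2.45e-07) on the log2 scale.

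Lactate left Il6 in MHC-IIhi at 16.1, 8.29, 19.5, 19.4 and 35.6 CPM in lactate MHC-IIhi 1, 3, 4, 5 and 6, a log2 difference of -0.13 ± 0.74 (SE, adjusted p = 0.973) from no-lactate culture with a 95% interval of -1.70 to 1.45. In lactate MHC-IIlo 1, 3, 4, 5 and 6 it was 0.0427, 0.381, 0.707, 19.7 and 0.283 CPM. Number 5 stood apart from the other 4, which averaged 0.353 ± 0.275 CPM (SD, n = 4). With that library the lactate change in MHC-IIlo was 3.20 ± 1.02 (SE, adjusted p = 0.106), and without it 0.03 ± 0.68 (SE, adjusted p = 0.991). The subset difference in lactate culture was -2.54 ± 0.81 (SE, adjusted p = 0.0285) with it and -5.71 ± 0.54 (SE, adjusted p = 3.75e-07) without it. It missed the threshold when lactate MHC-IIhi 6 or lactate MHC-IIlo 3, 4 or 6 was left out instead (adjusted p = 0.0609 to 0.0688) and with no filter on low counts (adjusted p = 0.0869). Ordered by mean, Il6 ran from fresh MHC-IIlo through no-lactate MHC-IIhi, lactate MHC-IIhi, fresh MHC-IIhi and lactate MHC-IIlo to no-lactate MHC-IIlo, and the ranges of all neighbours in that order overlapped.

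Osm, the IL-6 family member made mainly by leukocytes, was abundant in fresh TAMs and fell with culture in both subsets. Fresh values were 682, 491, 634, 959 and 842 CPM in MHC-IIhi 1 to 5 and 679.7, 558, 613, 839 and 739 CPM in MHC-IIlo 1 to 5. The fresh subsets overlapped and the log2 difference was -0.06 ± 0.21 (SE, adjusted p = 0.866), whose sign turned to 0.010 with limma voom and to 0.12 on deposited values. After culture without lactate Osm was 42.3, 39.9, 22.9, 18.99 and 57.04 CPM in MHC-IIhi 3, 4, 5, 6 and 7 and 14.7, 12.8, 12.6, 13.5 and 9.86 CPM in MHC-IIlo 1, 3, 4, 5 and 6. Every cultured library lay below every fresh library. MHC-IIhi fell 19.8-fold, a log2 change of -4.30 ± 0.29 (SE, adjusted p = 9.26e-11), and MHC-IIlo fell 52.5-fold, a log2 change of -5.71 ± 0.31 (SE, adjusted p = 4.52e-12). The fall was steeper in MHC-IIlo by -1.41 ± 0.36 (SE, adjusted p = 0.0127), which missed the threshold with all 30 libraries in 1 fit (adjusted p = 0.0588). The subset difference in no-lactate culture was -1.47 ± 0.37 (SE, adjusted p = 0.00711).

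With lactate, Osm was 17.3, 27.3, 36.9, 34.9 and 55.5 CPM in MHC-IIhi 1, 3, 4, 5 and 6 and 16.9, 25.4, 24.4, 101 and 19.5 CPM in MHC-IIlo 1, 3, 4, 5 and 6. All 5 lactate MHC-IIlo libraries stood above all 5 no-lactate MHC-IIlo libraries, and Osm was the 1 member with ranges that did not overlap there, against 3.24% of genes in that direction. The change in MHC-IIlo was 1.38 ± 0.37 (SE, adjusted p = 0.0639), which missed the threshold. Without lactate MHC-IIlo 5, at 101 CPM, it was 0.80 ± 0.29 (SE, adjusted p = 0.181), and without lactate MHC-IIlo 1 it was 1.54 (adjusted p = 0.0237). DESeq2 gave 1.37 (adjusted p = 0.00826) and limma voom with library quality weights gave 0.88 (adjusted p = 0.0279). The change also passed with all 30 libraries in 1 fit. In MHC-IIhi the change was -0.08 ± 0.36 (SE, adjusted p = 0.959), with a 95% interval of -0.85 to 0.69. The subset difference in lactate culture was -0.01 ± 0.36 (SE, adjusted p = 0.994), and -0.58 ± 0.29 (SE, adjusted p = 0.149) without lactate MHC-IIlo 5. By mean, the fresh groups stood at 721 ± 182 and 686 ± 109.7 CPM (SD, n = 5) and overlapped, lactate MHC-IIlo, no-lactate MHC-IIhi and lactate MHC-IIhi followed with overlapping ranges, and no-lactate MHC-IIlo was apart at the bottom.

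Il12b, the p40 subunit, was at or under 2.25 CPM in fresh TAMs and in all MHC-IIlo TAMs, and rose with culture in MHC-IIhi TAMs. Its counts in fresh MHC-IIhi 1 to 5 were 1, 1, 44, 9 and 5 reads, or 0.0557, 0.0591, 2.25, 0.420 and 0.248 CPM. In fresh MHC-IIlo 1 to 5 they were 0, 1, 8, 2 and 0 reads, or 0, 0.0525, 0.381, 0.0974 and 0 CPM. Number 3 was the highest of its group in both subsets, and the groups overlapped. The gene did not pass the filter on low counts in the fresh comparison. Without the filter the log2 difference was -2.39 (edgeR, adjusted p = 0.162), DESeq2 gave -2.48 (adjusted p = 0.103), and the fit of all 30 libraries gave -2.40 (adjusted p = 0.0457).

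In culture the ranges of the subsets did not overlap. Il12b was 7.62, 4.36, 5.96, 10.8 and 8.89 CPM in no-lactate MHC-IIhi 3, 4, 5, 6 and 7, against 0, 0, 4, 2 and 0 reads in no-lactate MHC-IIlo 1, 3, 4, 5 and 6. With lactate it was 20.1, 11.2, 10.04, 15.6 and 24.9 CPM in MHC-IIhi 1, 3, 4, 5 and 6, against 1, 3, 0, 3 and 0 reads in MHC-IIlo 1, 3, 4, 5 and 6. The log2 subset difference was -7.21 ± 0.55 (SE, adjusted p = 1.31e-08) without and -8.05 ± 0.54 (SE, adjusted p = 2.76e-09) with lactate, both fitted against MHC-IIlo groups of 6 and 7 reads in all, so their size depends on how the fit treats near-zero counts. The first was -8.29 without no-lactate MHC-IIlo 4, and the second -8.49 ± 0.61 (SE, adjusted p = 1.12e-08) without lactate MHC-IIlo 5. Relative to fresh cells, no-lactate MHC-IIhi was higher in all 5 libraries, by 12.7-fold, a log2 change of 3.66 ± 0.68 (SE, adjusted p = 8.73e-05). Without fresh MHC-IIhi 3, with 44 reads, the log2 change was 5.15. In MHC-IIlo the change was -1.15 ± 1.31 (SE, adjusted p = 0.472), between groups that both held few reads.

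The culture change of Il12b differed between subsets by -4.81 ± 1.55 (SE, adjusted p = 0.0429), a call that did not hold in 13 of 28 alternatives. It missed the threshold with no filter on low counts (adjusted p = 0.105), and when any of fresh MHC-IIhi 2, 4 or 5, fresh MHC-IIlo 2, 3 or 4, no-lactate MHC-IIhi 3 or 6, or no-lactate MHC-IIlo 1, 3, 5 or 6 was left out, with log2 differences of -5.07 to -3.46 (without fresh MHC-IIlo 3) and adjusted p of 0.0503 to 0.363. It was -6.30 without fresh MHC-IIhi 3 and -5.87 without no-lactate MHC-IIlo 4. Lactate went with a higher Il12b mean in MHC-IIhi, 16.4 ± 6.21 against 7.52 ± 2.49 CPM (SD, n = 5), with 1 library below the no-lactate maximum of 10.8 CPM. That change, 1.13 ± 0.33 (SE, adjusted p = 0.217) on the log2 scale, missed the threshold in edgeR, and passed with DESeq2 (1.12, adjusted p = 0.0388) and with limma on log2(FPKM + 1) of the deposited values (0.96, adjusted p = 0.0336). In MHC-IIlo it was 0.30 ± 1.00 (SE, adjusted p = 0.91), and -0.14 without lactate MHC-IIlo 5. Lactate MHC-IIhi and no-lactate MHC-IIhi thus stood first and second by mean with overlapping ranges, clear of the other 4 groups, which overlapped each other.

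**Figure D3:**
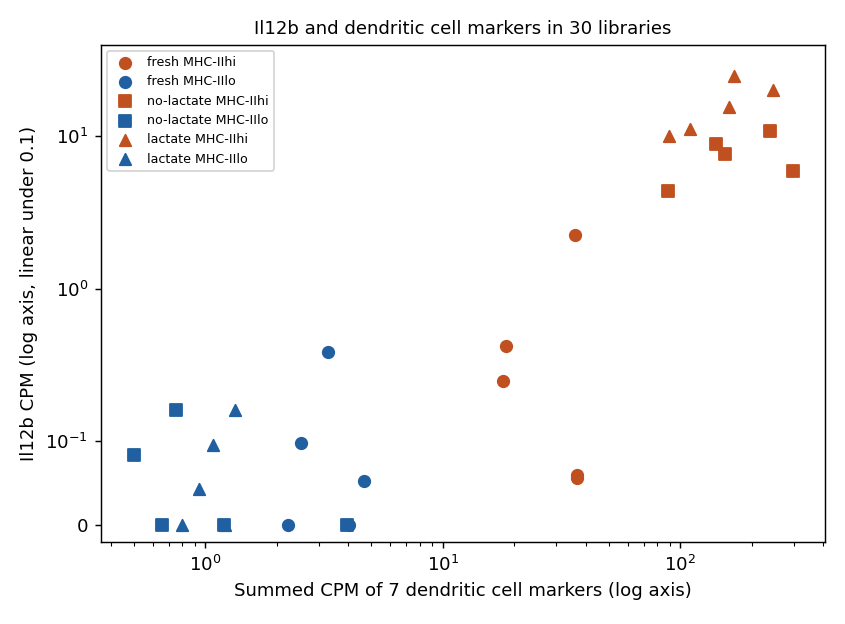
Il12b (CPM; logarithmic above 0.1 CPM and linear under it) against the summed CPM of 7 dendritic cell markers (log axis), 1 point per library (orange MHC-IIhi, blue MHC-IIlo; circles fresh, squares no-lactate, triangles lactate). The 10 cultured MHC-IIhi libraries hold 88.6 to 296.5 CPM of the markers and 4.36 to 24.9 CPM of Il12b, and the 15 MHC-IIlo libraries hold 0.499 to 4.68 CPM of the markers and at most 0.381 CPM of Il12b. By mean, Ccr7 is the largest part of the marker sum in cultured MHC-IIhi, and Cd209a in fresh MHC-IIhi.

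The summed dendritic cell markers and Il12b were both highest in the cultured MHC-IIhi groups, as the plot of Il12b against their sum shows. Between those groups the median marker sum was 154.5 CPM without and 160.4 CPM with lactate, while mean Il12b was 7.52 and 16.4 CPM. Different genes made up that sum. By mean, Ccr7 was the largest part in cultured MHC-IIhi, at 145.7 CPM without and 123.2 CPM with lactate. In fresh MHC-IIhi the largest was Cd209a, at 12.97 CPM. From fresh to no-lactate MHC-IIhi the means of Flt3, Zbtb46 and Ccr7 rose, while those of Cd209a, Batf3, Clec9a and Xcr1 fell. Among fresh MHC-IIhi libraries the marker sum was 17.99 to 36.8 CPM while Il12b ran from 0.0557 to 2.25 CPM. The part of such cells in the Il12b values was not tested.

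Tnf, an early product of NF-kappa B signalling, was lower in MHC-IIlo after culture, and passed in neither comparison of culture with fresh cells. Fresh values were 49.6, 43.4, 38.3, 80.95 and 78.3 CPM in MHC-IIhi 1 to 5 and 26.3, 29.7, 31.5, 58.96 and 67.8 CPM in MHC-IIlo 1 to 5. Numbers 4 and 5 were the 2 highest in both subsets, the ranges overlapped, and MHC-IIlo was lower within each of the 5 numbers, at 0.53 to 0.866 times its MHC-IIhi partner. The log2 difference was -0.42 ± 0.37 (SE, adjusted p = 0.46) without a term for the replicate number, and -0.46 (adjusted p = 0.000285) with the number as a block. Without lactate, cultured values were 67.7, 43.8, 53.7, 53.4 and 67.5 CPM in MHC-IIhi 3, 4, 5, 6 and 7 and 40.3, 27.9, 24.3, 34.9 and 29.8 CPM in MHC-IIlo 1, 3, 4, 5 and 6. The lowest MHC-IIhi library was above the highest MHC-IIlo library, and the log2 difference was -0.82 ± 0.19 (SE, adjusted p = 0.00303).

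With lactate, Tnf was 85.8, 51.5, 55.1, 60.95 and 67.4 CPM in MHC-IIhi 1, 3, 4, 5 and 6 and 31.6, 21.6, 24.3, 52.6 and 24.5 CPM in MHC-IIlo 1, 3, 4, 5 and 6. The ranges met only at lactate MHC-IIlo 5, at 52.6 CPM. The subset difference was -1.14 ± 0.19 (SE, adjusted p = 0.000152), and -1.28 ± 0.18 (SE, adjusted p = 3.2e-05) without that library. Culture did not move Tnf past the threshold in either subset, with -0.02 ± 0.29 (SE, adjusted p = 0.963) in MHC-IIhi and -0.42 ± 0.29 (SE, adjusted p = 0.232) in MHC-IIlo, and 95% intervals of -0.63 to 0.59 and -1.03 to 0.20. The value in MHC-IIhi was 0.13 and 0.14 on the deposited normalised values. The culture change differed between subsets by -0.40 ± 0.41 (SE, adjusted p = 0.584). Lactate gave 0.19 ± 0.19 (SE, adjusted p = 0.787) in MHC-IIhi and -0.13 ± 0.19 (SE, adjusted p = 0.762) in MHC-IIlo, with 95% intervals of -0.20 to 0.58 and -0.53 to 0.27. Without lactate MHC-IIlo 5 the latter was -0.27 ± 0.18 (SE, adjusted p = 0.514). By mean the 3 MHC-IIhi groups stood above the 3 MHC-IIlo groups, and every neighbour in the order overlapped.

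Il10, the anti-inflammatory cytokine, was low in fresh TAMs of both subsets and higher in cultured MHC-IIhi TAMs. It was 0.947, 0.177, 0.357, 0.374 and 1.69 CPM in fresh MHC-IIhi 1 to 5 and 1.06, 0.105, 0.857, 1.85 and 0.914 CPM in fresh MHC-IIlo 1 to 5. The groups overlapped, with 2 to 38 reads a library, and the log2 difference was 0.45 ± 0.67 (SE, adjusted p = 0.678). After culture it was 5.59, 3.95, 8.69, 6.01 and 5.84 CPM in no-lactate MHC-IIhi 3, 4, 5, 6 and 7 and 3.04, 1.83, 1.19, 1.54 and 1.28 CPM in no-lactate MHC-IIlo 1, 3, 4, 5 and 6. The MHC-IIhi libraries were all above both the fresh MHC-IIhi and the cultured MHC-IIlo libraries. MHC-IIhi rose 8.42-fold with culture, a log2 change of 3.07 ± 0.52 (SE, adjusted p = 3.08e-05) that was 3.72 without fresh MHC-IIhi 5, and MHC-IIlo changed by 0.92 ± 0.51 (SE, adjusted p = 0.126). That change in MHC-IIlo passed without fresh MHC-IIlo 4 (1.35, adjusted p = 0.0366).

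The difference between these culture changes of Il10 was -2.15 ± 0.72 (SE, adjusted p = 0.0511). It passed with DESeq2 (-2.16, adjusted p = 0.0209), with limma voom (-2.12, adjusted p = 0.0482), on log2(FPKM + 1) (-1.24, adjusted p = 0.00786), and without fresh MHC-IIhi 5, fresh MHC-IIlo 2 or no-lactate MHC-IIlo 1 (adjusted p = 0.0102 to 0.0335). With lactate Il10 was 7.93, 2.45, 3.62, 4.24 and 6.83 CPM in MHC-IIhi 1, 3, 4, 5 and 6 and 1.28, 0.349, 0.486, 0.373 and 0.243 CPM in MHC-IIlo 1, 3, 4, 5 and 6. The subsets did not overlap in either culture, with log2 differences of -1.70 ± 0.39 (SE, adjusted p = 0.00307) without and -3.22 ± 0.44 (SE, adjusted p = 1.63e-05) with lactate. The latter was -3.06 ± 0.46 (SE, adjusted p = 5.13e-05) without lactate MHC-IIlo 5 and -3.83 without lactate MHC-IIlo 1.

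Il10 was the 1 member of 6 that passed in a lactate comparison. It fell in MHC-IIlo from 1.78 ± 0.750 to 0.547 ± 0.420 CPM (SD, n = 5), a log2 change of -1.75 ± 0.44 (SE, adjusted p = 0.0481), against 0.611% of 13593 genes lower and 0.934% higher with lactate in that subset. The ranges overlapped through lactate MHC-IIlo 1, at 1.28 CPM, and the other 4 were each below all 5 no-lactate libraries. The call did not hold in 19 of 29 alternatives. It was lost without filter (adjusted p = 0.0645), with all 30 libraries in 1 fit (adjusted p = 0.064), on log2(FPKM + 1) (-0.69, adjusted p = 0.135), and when 1 of 16 libraries was left out: no-lactate MHC-IIhi 3, 4, 6 or 7, any no-lactate MHC-IIlo library, lactate MHC-IIhi 4, 5 or 6, or lactate MHC-IIlo 3, 4, 5 or 6. Those fits gave log2 changes of -1.88 to -1.46 and adjusted p of 0.0514 to 0.14, and -1.59 (adjusted p = 0.0951) without lactate MHC-IIlo 5. Without lactate MHC-IIlo 1 the log2 change was -2.36 and passed. In MHC-IIhi the lactate change was -0.22 ± 0.37 (SE, adjusted p = 0.896), with a 95% interval of -1.01 to 0.56. By mean, the cultured MHC-IIhi groups stood first and second and lactate MHC-IIlo last, and neighbours in the order overlapped.

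Il15, which supports NK and memory T cells, was higher in fresh MHC-IIlo and rose with culture in both subsets. Fresh values were 6.24, 4.73, 5.41, 5.37 and 6.04 CPM in MHC-IIhi 1 to 5 and 11.6, 10.9, 8.67, 12.3 and 12.9 CPM in MHC-IIlo 1 to 5. The ranges did not overlap, MHC-IIlo was 1.6 to 2.3 times as high within each number, and the log2 difference was 1.03 ± 0.16 (SE, adjusted p = 0.000374). In no-lactate culture it was 27.2, 31.6, 45.1, 51.5 and 18.1 CPM in MHC-IIhi 3, 4, 5, 6 and 7 and 32.5, 26.5, 25.9, 30.8 and 30.98 CPM in MHC-IIlo 1, 3, 4, 5 and 6. Every no-lactate library stood above every fresh library of its subset, while the cultured subsets overlapped. The culture change was 2.68 ± 0.23 (SE, adjusted p = 2.7e-09) in MHC-IIhi and 1.43 ± 0.22 (SE, adjusted p = 1.03e-05) in MHC-IIlo. The rise was larger in MHC-IIhi, with a difference of -1.25 ± 0.31 (SE, adjusted p = 0.00943) that missed the threshold on log2(FPKM + 1) (adjusted p = 0.057).

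With lactate, Il15 was 35.3, 30.3, 31.8, 31.1 and 18.9 CPM in MHC-IIhi 1, 3, 4, 5 and 6 and 23.2, 23.9, 33.5, 11.2 and 26.6 CPM in MHC-IIlo 1, 3, 4, 5 and 6. Lactate MHC-IIlo 5 was the lowest of its group, at 11.2 CPM. The subset difference was -0.21 ± 0.29 (SE, adjusted p = 0.674) without and -0.31 ± 0.29 (SE, adjusted p = 0.486) with lactate, and neither passed. Without lactate MHC-IIlo 5 the latter was -0.09 ± 0.25 (SE, adjusted p = 0.837). Lactate gave -0.22 ± 0.29 (SE, adjusted p = 0.869) in MHC-IIhi and -0.32 ± 0.29 (SE, adjusted p = 0.612) in MHC-IIlo, with 95% intervals of -0.84 to 0.40 and -0.94 to 0.30, and the change in MHC-IIlo was -0.09 ± 0.25 (SE, adjusted p = 0.902) without that library. By mean the 4 cultured groups came first with overlapping ranges, fresh MHC-IIlo followed with a range that met that of lactate MHC-IIlo, and fresh MHC-IIhi stood apart at the bottom.

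The culture comparison, which shares its fresh and no-lactate libraries with the subset comparisons, can be read by member. In MHC-IIhi, Il6, Il12b, Il10 and Il15, 4 of 6 members, rose and Osm fell, against 31.5% of 13682 genes higher and 30.4% lower. Ranges did not overlap for 3 higher members (20% of genes) and 1 lower member (23.4%). In MHC-IIlo, 1 member, Il15, rose (27.6% of genes) and 2, Il6 and Osm, fell (29.8%), and the same 3 had ranges that did not overlap, against 18.8% of genes higher and 25.6% lower. The culture change was lower in MHC-IIlo than in MHC-IIhi for Il6, Il12b, Osm and Il15, 4 of 6 members, against 8.20% of genes in that direction and 5.98% in the other. The 8 macrophage markers summed to 21750 to 23540 CPM in fresh and 7324 to 13800 CPM in no-lactate MHC-IIhi, and to 24530 to 25510 and 11450 to 14290 CPM in MHC-IIlo. Of those 8, 4 rose and 4 fell in MHC-IIhi (31.5% and 30.4% of genes), and 3 rose and 4 fell in MHC-IIlo (27.6% and 29.8%), none of them at 0. Other markers moved with culture as well. The dendritic cell sum went from 17.99 to 36.8 CPM in fresh to 88.6 to 296.5 CPM in no-lactate MHC-IIhi, where Flt3 (3.73 ± 0.47, adjusted p = 8.06e-07) and Ccr7 (4.84 ± 0.55, adjusted p = 2.32e-07) rose and Cd209a fell, and from 2.23 to 4.68 to 0.499 to 3.95 CPM in MHC-IIlo. The B cell sum went from 8.82 to 18.8 to 1.40 to 2.71 CPM in MHC-IIhi, and the T and NK cell sums overlapped between fresh and cultured cells. The neutrophil sum was higher in culture in both subsets, with Mmp8 rising, while S100a9 fell from 12.7 ± 2.78 to 0.0436 ± 0.0797 CPM in MHC-IIhi and from 27.1 ± 10.2 to 0.0134 ± 0.0299 CPM in MHC-IIlo (SD, n = 5). The epithelial sum was lower in culture in both subsets, with Cdh1 at -5.83 ± 0.19 in MHC-IIhi and -6.26 ± 0.20 in MHC-IIlo on the log2 scale. Krt8 was at -1.10 ± 0.33 and -0.94 ± 0.33. Epcam went the other way in MHC-IIhi, from 0.327 to 1.63 CPM (2.35 ± 0.60, adjusted p = 0.00229). The endothelial sum was higher in culture, with Kdr at 6.80 ± 0.24 and 5.11 ± 0.22 and Pecam1 at -1.63 ± 0.14 and -3.82 ± 0.15. The fibroblast sum of MHC-IIlo was 31.7 to 109 CPM in fresh and 38.9 to 77 CPM in cultured cells. Within it Col1a1, Col1a2, Col3a1 (-3.49 ± 0.58, adjusted p = 3.15e-05) and Col5a1 fell. Dcn rose (1.49 ± 0.36, adjusted p = 0.00142), and Pdgfra did not pass. Single markers named here and with the subsets were picked after their values were seen. The part of all these markers in the cytokine changes was not tested.

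**Figure D4:**
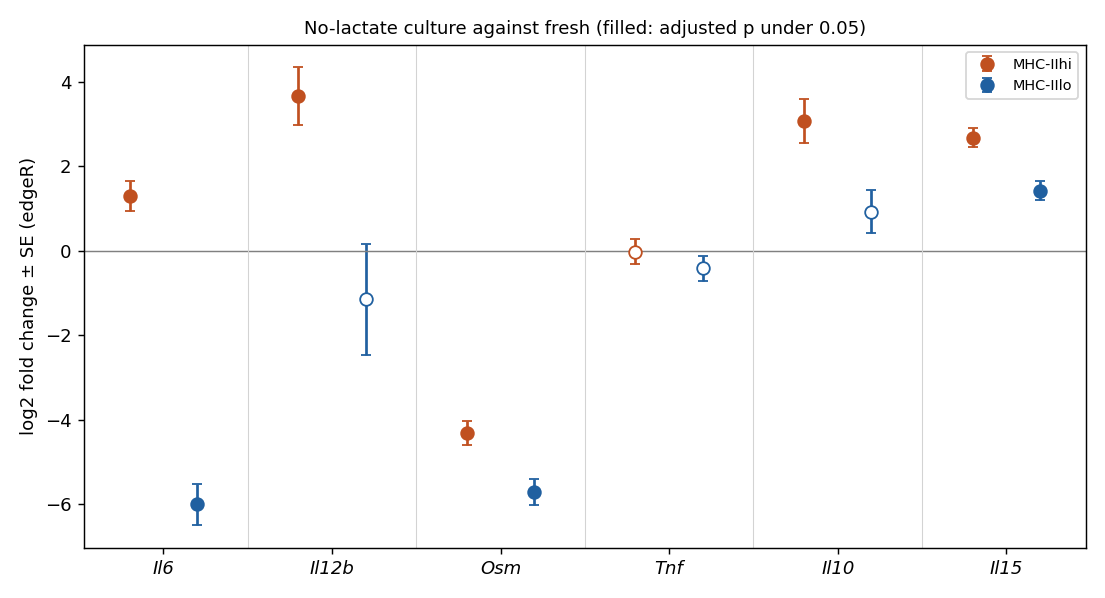
Log2 fold change of no-lactate culture against fresh cells for each gene (points with SE; orange MHC-IIhi, blue MHC-IIlo; filled where adjusted p was under 0.05). Il6 moves in opposite directions, 1.30 in MHC-IIhi and -6.0 in MHC-IIlo, Osm falls in both and Il15 rises in both.

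The lactate comparison asked what 20 mM sodium L-lactate changes. Of the 6 members 0 passed in MHC-IIhi by edgeR, against 0.265% of 13593 genes in either direction, and 0 had an interaction of lactate with subset past the threshold, against 0% of genes. At an unadjusted p under 0.05, 1 member (Il12b) and 1345 genes differed with lactate in MHC-IIhi, and 3 members (Il6, Osm and Il10) and 1011 genes in the interaction. DESeq2 and limma on log2(FPKM + 1) each passed 1 member in MHC-IIhi, Il12b, and 0 members in the interaction. The interaction was 3.33 ± 1.27 (SE, adjusted p = 0.662) for Il6, 1.46 ± 0.52 (SE, adjusted p = 0.63) for Osm and -1.53 ± 0.57 (SE, adjusted p = 0.63) for Il10, and 0.16 ± 0.77 (SE, adjusted p = 0.981), 0.89 ± 0.39 (SE, adjusted p = 0.761) and -1.36 ± 0.58 (SE, adjusted p = 0.761) without lactate MHC-IIlo 5. For Il12b, Tnf and Il15 it was -0.84, -0.32 and -0.10, and without that library -1.27, -0.46 and 0.13.

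**Figure D5:**
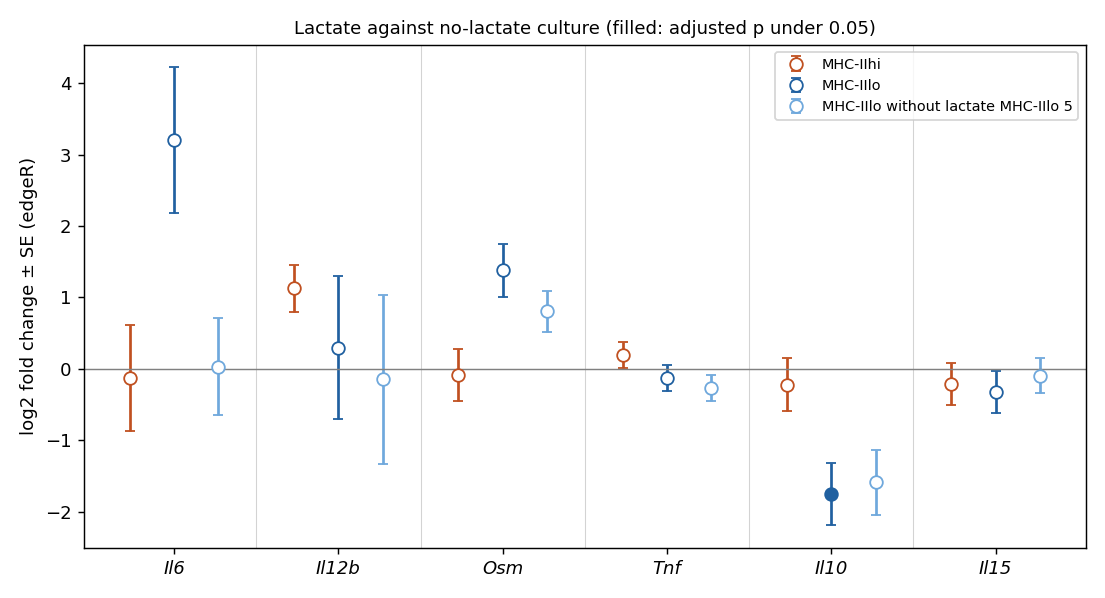
Log2 fold change of lactate against no-lactate culture for each gene (points with SE; orange MHC-IIhi, blue MHC-IIlo, light blue MHC-IIlo without library lactate MHC-IIlo 5; filled where adjusted p was under 0.05). Il6 in MHC-IIlo moves from 3.20 to 0.03 and Osm from 1.38 to 0.80 when that library is left out.

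Receptor chains of these cytokines were measured in the same libraries, and 13 of 13 listed chains were tested. In fresh MHC-IIlo 3 chains were higher (14% of all genes) and 4 lower (15.2%) than in MHC-IIhi, with a median log2 difference of -0.08 against 0.00 over all genes. Il10rb, the shared chain of the IL-10 receptor, was higher (141.7 ± 9.45 against 82.7 ± 10.5 CPM, SD, n = 5; 0.79 ± 0.11, adjusted p = 0.000126), and Il6st, which encodes gp130, was also higher (0.36 ± 0.10, adjusted p = 0.0163). Il6ra, the specific chain for IL-6, was lower (-0.38 ± 0.08, adjusted p = 0.00242), as was Il12rb2 of the IL-12 receptor (-0.84 ± 0.18, adjusted p = 0.00368). In no-lactate culture 0 were higher and 3 lower (9.19% and 11.6% of all genes), Il15ra, Tnfrsf1b and Lifr, and with lactate 0 were higher and 6 lower, against 9.15% and 13.3% (5 lower without lactate MHC-IIlo 5, and 1 higher and 3 lower in no-lactate culture in that fit). Il15ra, which presents IL-15, stood at 13.4 ± 1.59 CPM in no-lactate MHC-IIlo and 37.8 ± 12.3 CPM in no-lactate MHC-IIhi (SD, n = 5; -1.47 ± 0.21, adjusted p = 2.33e-05), although Il15 itself did not pass there.

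With culture, 6 chains rose and 4 fell in MHC-IIhi, against 31.5% and 30.4% of all genes, and 5 rose and 5 fell in MHC-IIlo, against 27.6% and 29.8%. Tnfrsf1b, the TNF receptor 2, rose from 276.8 ± 28.7 to 1995 ± 444 CPM in MHC-IIhi (2.88 ± 0.16, adjusted p = 2.14e-12) and by 1.80 ± 0.16 in MHC-IIlo (adjusted p = 2.6e-09). Il15ra rose by 2.96 ± 0.20 in MHC-IIhi (adjusted p = 3.25e-11) and by 1.72 ± 0.20 in MHC-IIlo (adjusted p = 1.47e-07), so the transcript of the cytokine and that of its presenting chain both rose in both subsets. Osmr, the OSM receptor, was low, at 0.586 CPM in fresh and 2.92 CPM in no-lactate MHC-IIhi (2.38 ± 0.45, adjusted p = 8.55e-05).

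Partner subunits and relatives of these cytokines made a list of 15 genes, of which 8 were tested in fresh cells and 12 in culture. In fresh cells 0 were higher and 2 lower, Clcf1 and Ltb, against 15.2% of all genes lower. In no-lactate culture 0 were higher and 8 lower (11.6% of all genes), with a median log2 difference of -1.35 against -0.01 over all genes, and with lactate 0 were higher and 4 lower (13.3%). Il12a, which encodes the p35 subunit that pairs with p40 in IL-12, was 0.0856 ± 0.0853 CPM in no-lactate MHC-IIlo and 2.20 ± 0.721 CPM in no-lactate MHC-IIhi (SD, n = 5; -4.53 ± 0.53, adjusted p = 2.79e-06), and lower by -5.10 ± 0.53 on the log2 scale with lactate (adjusted p = 6.56e-07). Il23a, the p19 subunit of IL-23, differed less (-1.11 ± 0.29, adjusted p = 0.00856). Both partners of p40 were lower in MHC-IIlo without lactate. Il12a was near 0 in MHC-IIlo, so it could pass the filter on low counts through its higher group alone. The size of its difference depends on how the fit treats near-zero counts. With culture Il12a rose in MHC-IIhi by 5.04 ± 0.66 (adjusted p = 8.17e-07) and was at -0.00 ± 0.93 in MHC-IIlo (adjusted p = 0.997).

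With lactate in MHC-IIlo, 3 of 12 relatives passed, all higher, against 0.934% of all genes: Lif (1.65 ± 0.29, adjusted p = 0.00853), Il11 (1.97 ± 0.44, adjusted p = 0.0284) and Clcf1 (0.82 ± 0.16, adjusted p = 0.0132), each an IL-6 family ligand. Without lactate MHC-IIlo 5 they were at 1.47 (adjusted p = 0.0217), 1.71 (adjusted p = 0.0618) and 0.74 (adjusted p = 0.0338). In the receptor list Il12rb2 was lower with lactate in MHC-IIlo (-2.05 ± 0.44, adjusted p = 0.0241; -1.80, adjusted p = 0.0446, without that library). In MHC-IIhi 0 of 12 relatives and 0 of 13 receptor chains passed in edgeR, and 2 relatives and 1 chain had an unadjusted p under 0.05. Il11, Lifr in no-lactate culture, and Tnip1, Maf and Batf among the regulators were named after their values were seen.

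Among 11 Janus kinases and STATs, which carry the signals of IL-6, OSM, IL-12, IL-10 and IL-15, 0 were higher and 2 lower in fresh MHC-IIlo, 0 and 4 in no-lactate culture, and 0 and 8 with lactate, where 15.2%, 11.6% and 13.3% of all genes were lower. Stat4, the STAT used by IL-12, was 0.134 ± 0.256 CPM in no-lactate MHC-IIlo and 17.3 ± 5.85 CPM in no-lactate MHC-IIhi (SD, n = 5; -6.85 ± 0.62, adjusted p = 1.14e-07), and Jak2 was lower in each of the 3 settings, by -0.83, -1.62 and -1.98 on the log2 scale. Stat4 was near 0 in cultured MHC-IIlo and could pass the filter through its higher group alone, so the size of its difference is uncertain. Without lactate MHC-IIlo 5 the counts of lower genes were 6 and 7 in the 2 cultures. Culture raised Stat2 from 62.7 ± 6.34 to 808 ± 206 CPM in MHC-IIhi (3.74 ± 0.16, adjusted p = 1.81e-14) and from 62.8 ± 9.42 to 570.6 ± 49.3 CPM in MHC-IIlo (3.25 ± 0.16, adjusted p = 1.35e-13). Stat2 belongs to the interferon pathway.

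All 9 feedback inhibitors of cytokine and NF-kappa B signalling passed in no-lactate culture, lower in MHC-IIlo, with a median of -1.61 against -0.01 over all genes. With lactate 8 of 9 were lower, and in fresh cells 6 of 9. The shares of all genes lower there were 11.6% without lactate, 13.3% with it and 15.2% in fresh cells. Socs2 was 3.28 ± 0.791 CPM in no-lactate MHC-IIlo and 25.9 ± 6.38 CPM in no-lactate MHC-IIhi (SD, n = 5; -2.95 ± 0.24, adjusted p = 3.16e-08), and Socs1, an inhibitor of JAK signalling, was lower by -1.87 ± 0.17 (adjusted p = 1.05e-07). In fresh cells Cish, a target of STAT5, stood at 225 ± 10.4 CPM in MHC-IIhi but 66.4 ± 4.50 CPM in MHC-IIlo (-1.75 ± 0.07, adjusted p = 1.05e-09), and Tnip3 was lower by -2.66 ± 0.16 (adjusted p = 9.47e-08). With culture in MHC-IIhi 2 rose, Socs1 (2.37 ± 0.17) and Tnip1, and 3 fell, led by Cish (-2.91 ± 0.16). In MHC-IIlo 3 rose and 5 fell, against 27.6% and 29.8% of all genes (31.5% and 30.4% in MHC-IIhi), Cish by -3.80 ± 0.18 and Socs2 by -2.90 ± 0.19. With lactate in MHC-IIlo 1 of 9, Cish, was higher, against 0.934% of all genes (0.95 ± 0.24, adjusted p = 0.0483), and 0.89 (adjusted p = 0.0908) without lactate MHC-IIlo 5.

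Of 18 transcription regulators, 1 was higher and 5 lower in fresh MHC-IIlo, and 1 was higher and 13 lower in each culture (12 with lactate when lactate MHC-IIlo 5 was left out). The shares of all genes were 14% higher and 15.2% lower in fresh cells, 9.19% and 11.6% without lactate, and 9.15% and 13.3% with it. The 1 higher gene was Maf in fresh cells (1.64 ± 0.21, adjusted p = 0.000185), a factor known to drive Il10 transcription, which was at -0.01 ± 0.31 in no-lactate culture (adjusted p = 0.988) and lower with lactate (-1.05 ± 0.32, adjusted p = 0.0214). In both cultures the 1 higher gene was Batf (0.49 ± 0.17, adjusted p = 0.0469, without lactate). Rel, which encodes the NF-kappa B subunit c-Rel, was 45.7 ± 4.79 CPM in no-lactate MHC-IIlo and 104.5 ± 15.4 CPM in MHC-IIhi (SD, n = 5; -1.16 ± 0.11, adjusted p = 1.77e-07). Irf4 was lower in MHC-IIlo in all 3 settings, by -2.98, -2.36 and -3.08 on the log2 scale. Batf3 is also among the dendritic cell markers above. With culture Irf1 rose by 2.84 ± 0.18 in MHC-IIhi and 2.32 ± 0.17 in MHC-IIlo. In MHC-IIhi 7 of the 18 regulators rose and 6 fell, and in MHC-IIlo 1 rose and 9 fell, against 31.5% and 30.4% of all genes in MHC-IIhi and 27.6% and 29.8% in MHC-IIlo. The culture change was lower in MHC-IIlo for 8 genes and higher for 2, against 8.20% and 5.98%.

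Among 9 factors that bind or clear cytokine transcripts, Zfp36, which encodes tristetraprolin, fell from 2214 ± 234 to 238.5 ± 23.5 CPM in MHC-IIhi (SD, n = 5; -3.19 ± 0.19, adjusted p = 6.14e-12) and from 2109 ± 342 to 134 ± 32.5 CPM in MHC-IIlo (-3.92 ± 0.20, adjusted p = 3.92e-13). Zfp36l1 fell by 2.45 ± 0.21 and 4.06 ± 0.23 on the log2 scale, and Zc3h12c rose by 2.96 ± 0.15 and 2.08 ± 0.15. In all, 3 of 9 rose and 5 fell in MHC-IIhi, against 31.5% and 30.4% of all genes, and 3 rose and 3 fell in MHC-IIlo, against 27.6% and 29.8%. Between subsets, 0 were higher and 1 lower in fresh MHC-IIlo, 1 and 4 in no-lactate culture, and 0 and 4 with lactate (1 and 6 without lactate MHC-IIlo 5), where 15.2%, 11.6% and 13.3% of all genes were lower. Zc3h12a, the RNase regnase-1 that cuts Il6 and Il12b transcripts, was lower in MHC-IIlo by -1.08 ± 0.13 in no-lactate culture (adjusted p = 3.39e-06).

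Of 5 genes for shedding and release of TNF, 2 were higher in fresh MHC-IIlo, against 14% of all genes, Adam17 (250.9 ± 12.3 against 200 ± 11.2 CPM, SD, n = 5; 0.34 ± 0.06, adjusted p = 0.000554) and Rhbdf1 (0.85 ± 0.20, adjusted p = 0.00504). In culture 1 was lower without lactate, Rhbdf2 (-0.94 ± 0.11, adjusted p = 1.81e-06), which carries ADAM17 to the cell surface in immune cells, and 3 were lower with lactate (2 without lactate MHC-IIlo 5), against 11.6% and 13.3% of all genes. Culture raised Adam17 in MHC-IIhi by 0.57 ± 0.08 (adjusted p = 3.84e-06) and left it at -0.01 ± 0.08 in MHC-IIlo (adjusted p = 0.934).

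The genes whose pattern over the 6 group means was most like each cytokine were found by the root mean square difference of centred log2(CPM + 0.5) values, over 12266 genes. For Tnf they were Slc4a8 (0.0621), Mllt6 (0.0891) and Ciart (0.0894), and for Il15 Nck2 (0.133), Slc16a10 (0.142) and Cflar (0.147). For Osm they were Hs3st3b1 (0.163), F5 (0.265) and Alox5 (0.418). Il10 had Il23r (0.31), Tm4sf5 (0.31) and Mab21l3 (0.325), and Il12b had Itgb8 (0.37), Synpo2 (0.471) and Cacnb3 (0.497). Il6 had the most distant neighbours, Tnfrsf9 (0.604), Samsn1 (0.642) and Tmem119 (0.693). Among the 6 cytokines themselves, Il10 and Il15 were closest (0.789), and Il12b and Osm farthest apart (3.44). These are descriptions over 6 points that share libraries, and a gene that varies little is close to Tnf more easily than to Il6. The added 0.5 also narrows the pattern of genes near 0. Among them were Slc4a8, with group means of 0.188 to 1.04 CPM, Il23r (0 to 2.48 CPM) and Mab21l3 (0.04 to 2.925 CPM).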

How the data were processed

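Bulk RNA-seq of 30 mouse TAM libraries in 6 groups of 5 was analysed from a deposited table of raw counts per gene, made by the authors with Trimmomatic, STAR and featureCounts on GRCm38, per the submitters' processing notes (no versions, and no strand setting, are given in the sources used here). A second deposited table holds FPKM values of 13778 genes (29.6% of 46603). In it the upper quantiles of values times gene length were the same in each library, within 1.2e-13%. Low values there did not reach 0: Il12b in fresh MHC-IIlo 1, with 0 reads, was listed at 0.0233 FPKM. Cultured columns carry numbers that match no single label, so they were mapped to groups only.

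CPM is the count over the library total times 1e+06. Counts entered edgeR 4.0.16 (filterByExpr, TMM, robust quasi-likelihood F-test; R 4.3.3), fitted to all genes separately for the 10 fresh libraries, the 20 cultured libraries, and the 20 fresh and no-lactate libraries. P-values were adjusted by Benjamini-Hochberg over all genes of a fit, with a threshold of 0.05, and 95% intervals used the t quantile of the residual degrees of freedom. Steps were tested on simulated data. Limma 3.58.1 and DESeq2 1.42.0 were alternatives; limma ran on log2(FPKM + 1) and log2(FPKM + 0.1).

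The 6 genes and the lists were chosen with earlier results of these data known. Each list gene named was 1 of the 2 with the smallest p of its list in a comparison, or a cytokine's own receptor chain or partner subunit, unless said otherwise. Same-numbered fresh libraries deviated together, with correlations of 0.0554 to 0.382 over 14015 genes and 0.249 to 0.721 over the 5269 genes with a mean of at least 32 CPM. The second set of genes was taken after the first had been seen. In it 3 of 5 fresh MHC-IIhi libraries correlated best with the MHC-IIlo library of their own number. Numbers 4 and 5 each correlated best with the other. Over the first set 4 of 5 correlated best with their own number. The fresh numbers were treated as pairs on the second set. That pairing entered the ratios within a number and the replicate block, and the main tests had no block. Depth limits the genes with few reads, Il12b and Il10 in fresh and MHC-IIlo cells. No library duplicated another.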

Additional observations from a re-analysis of the deposited data

Results flagged for a closer look

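In 36 groups of 5 libraries, 5 held a library whose gap to its nearest neighbour was over 0.71 of the group's range. For independent, normally distributed values that happens in about 1 in 20 groups. These groups share libraries and include near-zero counts, so that rate is no measure of chance here. Il6 in lactate MHC-IIlo 5 was 19.7 CPM, against at most 0.707 CPM in the other 4, and Osm in the same library was 101 CPM, against at most 25.4 CPM. Its other values are given with the results. Il10 in lactate MHC-IIlo 1 was 1.28 CPM, against at most 0.49 CPM in the other 4. Il12b in fresh MHC-IIhi 3 was 2.25 CPM, or 44 reads, and in fresh MHC-IIlo 3 it was 0.381 CPM, or 8 reads, both the highest of their groups.

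For 4 genes the change from fresh cells to no-lactate culture differed between subsets in edgeR, by -7.3 on the log2 scale for Il6, -4.81 for Il12b, -1.41 for Osm and -1.25 for Il15, each lower in MHC-IIlo.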

How the results depend on the processing

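Of 1462 alternative values of the 6 genes, 1356 kept direction and side of the threshold, 42 fell below it, 18 passed it and 46 changed sign, of which 0 belonged to a result that had passed. Counts of passing genes are not in this tally. Alternatives were RLE size factors, no filter, DESeq2, limma, the replicate block, all 30 libraries in 1 fit, and each library left out. Leaving out lactate MHC-IIlo 5 together with the block was chosen after seeing the data. The cause of a change was not tested. Sign changes were as follows. For Osm in fresh cells voom gave 0.010 and deposited values 0.12 at either pseudocount, and for Osm between lactate subsets no filter gave 0.00051. For Tnf with culture in MHC-IIhi no filter gave 0.0035, voom 0.040 and deposited values 0.13 and 0.14. With the block, the lactate change in MHC-IIhi was 0.25 for Il6 and 0.20 for Osm (0.13 and 0.20 without lactate MHC-IIlo 5), and the Il15 interaction 0.10 (0.34). With the block and without that library, the lactate change in MHC-IIlo was -0.035 for Il6 and -0.21 for Il12b, and the Il6 interaction -0.17.

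Leaving out 1 library moved the lactate interaction of Il12b from -1.27 to 0.24 and of Il15 from -0.31 to 0.13. The lactate change in MHC-IIlo of Il12b ran from -0.14 to 1.36, and in MHC-IIhi that of Il6 from -0.42 to 0.10 and of Osm from -0.31 to 0.092. The culture change of Il12b in MHC-IIlo ran from -2.20 to 0.20 and of Tnf in MHC-IIhi from -0.15 to 0.17. Between subsets Osm ran from -0.19 to 0.085 in fresh and from -0.58 to 0.21 in lactate cells, and Il15 in no-lactate cells from -0.40 to 0.0010. Il6 with lactate in MHC-IIlo passed with DESeq2 (adjusted p = 0.0263), with all 30 libraries (adjusted p = 0.0486) and without lactate MHC-IIlo 1 (adjusted p = 0.0365). Members passing with lactate in MHC-IIhi were 1 with DESeq2 and 1 on log2(FPKM + 1). In MHC-IIlo they were 0 with no filter and on log2(FPKM + 1), 3 with DESeq2, 2 with voom and with all 30 libraries, and 0 to 3 with 1 library left out.

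The cultured numbers were taken as names only: correlations of same-numbered deviations were negative for some pair in 5 of 7 pairs of groups, from -0.293 to 0.411 between lactate and no-lactate MHC-IIhi. They were -0.0273 to 0.47 between lactate subsets and 0.0631 to 0.323 between lactate and no-lactate MHC-IIlo, where in each case 4 of 5 libraries correlated best with their own number. The replicate block gave -1.16 (adjusted p = 0.0711) for Osm between no-lactate subsets and -2.38 (adjusted p = 0.0162) for the Il10 culture interaction. Besides these and fresh Tnf it changed no other call of the 6 genes. Over all genes, calls moved from 3739 to 5033 with the block in fresh cells, from 2823 to at most 4335 (voom) between no-lactate subsets, from 36 to between 8 and 262 with lactate in MHC-IIhi, from 210 to between 52 and 1502 with lactate in MHC-IIlo, and from 0 to at most 8 in the lactate interaction. Il12b and Il10 rest on few reads outside cultured MHC-IIhi, where depth limits their precision.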
